A study of Sus scrofa with 19 samples.

Results

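Aminoacyl-tRNA synthetases join each amino acid to its own tRNA, the charging step that supplies the ribosome. Nuclear genes encode separate sets of these enzymes for the cytosol and for the mitochondrion, and a few genes, such as GARS1 and KARS1, serve both compartments. Several cytosolic enzymes sit in a multisynthetase complex held together by scaffold proteins. When uncharged tRNA accumulates or the endoplasmic reticulum is stressed, the transcription factor ATF4 is translated, and many cytosolic synthetase genes are among its known targets, whereas the mitochondrial set is known mainly from inherited diseases of heart, brain and muscle. The 36 genes described here were listed by symbol, with older symbols that lack the final 1 accepted. All 36 of 36 were found in the authors' expression table of 14744 genes and, through the Ensembl identifiers paired with them there, in count files of 25879 genes. They comprise 18 cytosolic enzymes, 2 dual enzymes (GARS1 and KARS1) and 16 mitochondrial enzymes, and all 36 passed the filter on low counts that kept 13552 genes.

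RNA had been sequenced from LV tissue of 19 female large white pigs, with 1 library for each pig. The 5 DOX pigs were given doxorubicin and the 5 MYO pigs its liposomal form Myocet, at 60 mg/m2 per cycle over 3 cycles, and both groups were sampled in the anterior wall at 3 months, earlier than planned because the animals' health declined. The 3 RemoLV pigs had 90 min of balloon occlusion of the left anterior descending artery followed by reperfusion, with tissue from the remote posterior wall at 6 months. The 3 Hyper pigs outgrew a stent fixed in the descending aorta, which produced pressure overload, and were sampled in the anterior wall at 6 months. The 3 Control pigs, also sampled in the anterior wall and labelled with a follow-up of 6 months, are called sham-operated in the sample labels and untreated in the methods of the study, and no vehicle-treated pig was sequenced. The DOX and MYO data came from an earlier study by the same group, so drug treatment, follow-up time and study cannot be told apart. In bulk tissue, fewer cells of a type and less RNA per cell cannot be told apart either.

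Library totals ranged from 9527710 to 20370209 counts, and the lowest count of any synthetase in any library was 16 (TARS3). The names of the libraries conflict between the deposited files. When each column of the expression table was matched to its closest count file, 8 of 19 fell to a library of another group: the 3 Control and the 3 RemoLV names were exchanged, as were DOX 5 and MYO 1. The groups below follow the names of the count files unless stated otherwise, and the comparison of DOX and MYO together with Hyper has the same libraries on each side under both namings. The tissue label held for 16 libraries, in which the ventricular light chain MYL2 was between 8975 and 18080 CPM. In the 3 libraries labelled RemoLV, MYL2 was 18.58, 115.3 and 40.02 CPM, and the atrial light chain MYL4 was 8130, 7348 and 6029 CPM against at most 21.9 CPM elsewhere. The Y-linked gene DDX3Y was at 96.1 CPM or more in all 10 DOX and MYO libraries and at most 0.137 CPM in the other 9, although the study describes female pigs. This split also coincides with drug treatment and cannot be told apart from it in any comparison of DOX or MYO with another group.

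Cytosolic enzymes varied far more than mitochondrial enzymes across these libraries. The summed level of the 18 cytosolic enzymes was 1466, 1138 and 1924 CPM (counts scaled to a common library size with TMM factors) in Control libraries 1, 2 and 3. Hyper libraries lay at 1194, 1100 and 1091 CPM, DOX libraries between 945.5 and 1008 CPM with a median of 964.9 CPM, and MYO libraries between 912.5 and 1171 CPM with a median of 943.7 CPM. The libraries labelled RemoLV were the lowest of all, at 818.8, 812.5 and 800.9 CPM. Control 1 and Control 3 were thus above the other 17 libraries, while Control 2 fell within the Hyper range. The summed level of the 16 mitochondrial enzymes was 473.3 ± 10.35 CPM in Control (SD, n = 3), 479.5 ± 24.34 CPM in Hyper (SD, n = 3), 476.5 ± 14.27 CPM in DOX (SD, n = 5), 504.0 ± 7.619 CPM in MYO (SD, n = 5) and 428.9 ± 28.58 CPM in RemoLV (SD, n = 3). These sums overlapped between Control, Hyper and DOX, whereas every MYO library was above and every RemoLV library below every Control library. As a percentage of the cytosolic sum, the mitochondrial sum was 31.5%, 41.8% and 25.1% in Control, 42.5%, 42.6% and 42.4% in Hyper, 48.3% to 50.9% in DOX, 42.8% to 55.5% in MYO and 49.8% to 56.1% in RemoLV. Long and abundant transcripts weigh most in such sums, so the percentage is set between libraries and says nothing of enzyme amounts.

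**Figure D1:**
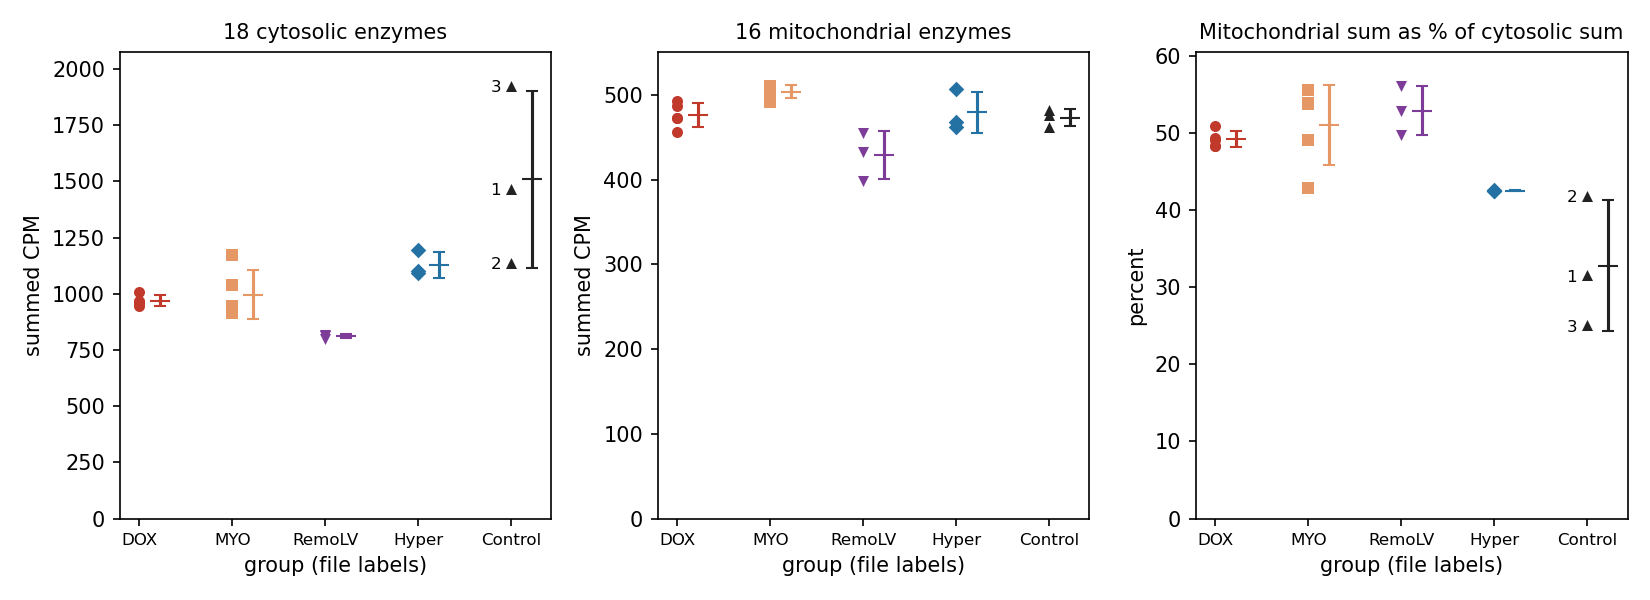
Summed CPM of the 18 cytosolic enzymes (left), summed CPM of the 16 mitochondrial enzymes (middle) and the second as a percentage of the first (right) for each of 19 libraries by group, with the mean ± SD beside the points and Control replicate numbers on the outer panels. The cytosolic sum runs from 1138 to 1924 CPM among Control libraries while the mitochondrial sum stays between 461.9 and 482.1 CPM there.

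The Control libraries were the most divided, and the division lay in particular cytosolic enzymes. In 10 members, both Control 1 and Control 3 were above each of the other 17 libraries: AARS1, CARS1, EPRS1, IARS1, MARS1, NARS1, SARS1, TARS1 and YARS1 among the 18 cytosolic enzymes, and GARS1 of the 2 dual enzymes. No mitochondrial enzyme of 16 did so. Of all genes tested, 10% showed this pattern. Control 2 was the lowest Control library in 18 of 36 members, 13 of them cytosolic and 4 mitochondrial, beside 40.6% of all genes. The alanine enzyme AARS1 was at 190.5, 81.2 and 313.8 CPM in Control 1, 2 and 3, against 83.6 to 91.6 CPM in Hyper. Control 2 was therefore below every Hyper library for AARS1, and Control 1 and Control 3 were 2.35 and 3.87 times as high as Control 2. The cysteine enzyme CARS1 was at 29.6, 15.1 and 46.4 CPM, and the threonine enzyme TARS1 at 78.3, 53.3 and 131.1 CPM in the same order. In both, Control 2 lay within the Hyper range, which was 12.0 to 20.6 CPM for CARS1 and 45.5 to 55.6 CPM for TARS1. The serine enzyme SARS1 repeated the order at 135.9, 80.7 and 183.6 CPM, and the isoleucine enzyme IARS1 at 125.8, 93.9 and 195.0 CPM.

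**Figure D2:**
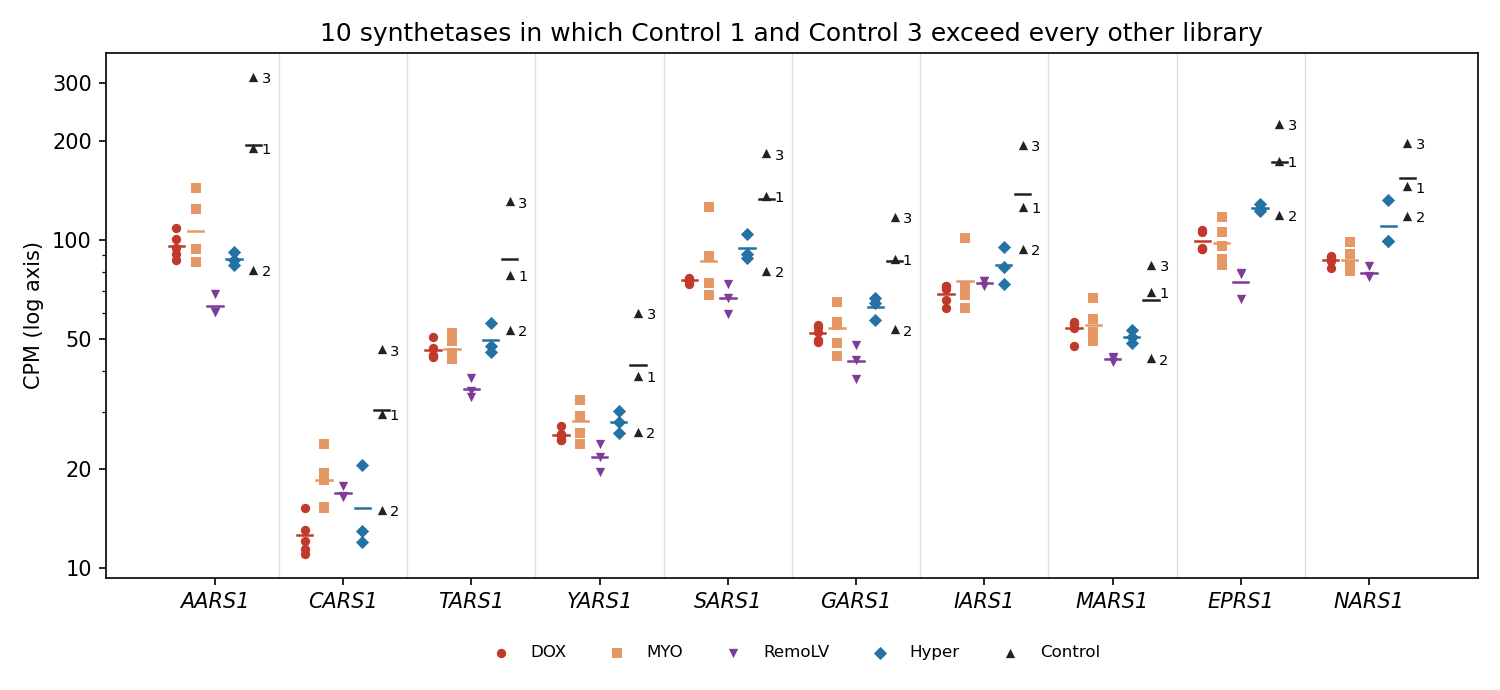
CPM (log axis) of the 10 members in which Control 1 and Control 3 exceed every other library, in order of their range among Control libraries. Points are libraries, short lines are group means, and the Control replicates are numbered. Control 2 lies among the other groups for each gene, for example at 81.2 CPM for AARS1, where Hyper spans 83.6 to 91.6 CPM.

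Measured as the log2 CPM range among the 3 Control libraries, AARS1 (1.94), CARS1 (1.59) and TARS1 (1.29) spread the most, followed by YARS1 (1.19), SARS1 (1.18), GARS1 (1.13) and IARS1 (1.05). These are 6 of the 18 cytosolic enzymes and 1 of the 2 dual enzymes with a range of at least 1. No mitochondrial enzyme reached that value, and 15.9% of all genes tested did. The median range was 0.73 for cytosolic enzymes, 0.47 for mitochondrial enzymes and 0.49 for all genes tested. Among Hyper libraries the medians were 0.28, 0.39 and 0.45 in the same order. The cytosolic set also held some of the most even genes, such as QARS1 (0.16), the glutamine enzyme, and the dual enzyme KARS1, which joins lysine to its tRNA, had the narrowest range of all members (0.07). Several mitochondrial enzymes had the reverse order of the Control libraries. EARS2, the mitochondrial glutamate enzyme, was at 9.33, 13.3 and 8.04 CPM, and SARS2, its counterpart for serine, at 5.15, 6.95 and 4.51 CPM in Control 1, 2 and 3, so that Control 2 was the highest.

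**Figure D3:**
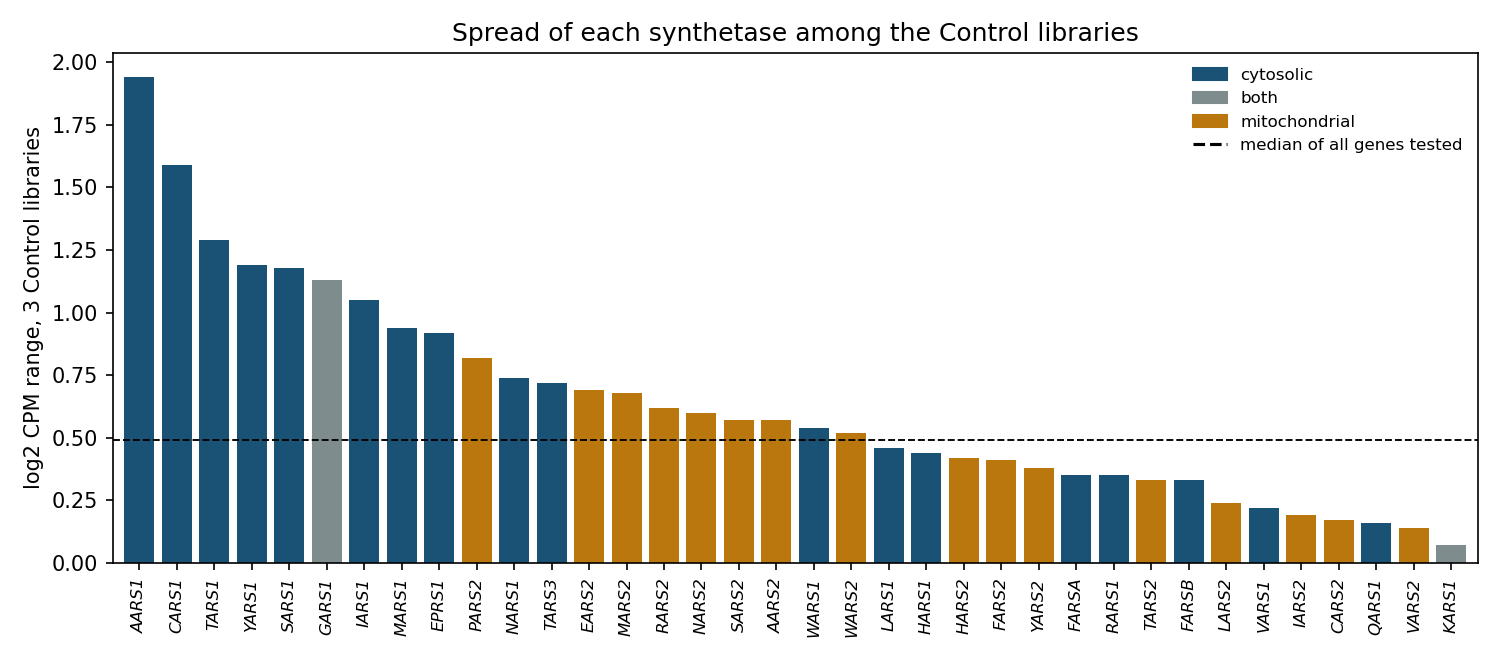
Range of log2 CPM (with 0.5 added to each CPM) among the 3 Control libraries for each of the 36 members, coloured by compartment, with the median of all genes tested (0.49) as a dashed line. The 9 widest bars are 8 cytosolic enzymes and the dual enzyme GARS1.

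The 4 members with the widest Control range share a short sequence near their gene starts. The windows from 250 bases before to 50 bases after the RefSeq gene start (Sscrofa11.1) were searched on both strands for TGATGNAA, the core of the element at which ATF4 binds with C/EBP partners. The motif and the windows were chosen after the values were known, so this is a description without a test. Of 35 members with a RefSeq entry matched by symbol, 4 held a match, namely AARS1, CARS1, TARS1 and YARS1. Each match read TGATGCAA on 1 strand, and no mitochondrial enzyme among those matched held the motif in its window. HARS2 was not matched by symbol. Of 19559 windows of the same length over all genes, 546 (2.79%) held the motif. A match of letters is not a binding site. The stretches around the matches are shown because they mark the members that differ most among Control libraries. They are written 5′ to 3′ on the strand of the gene, with the match, or its reverse complement, in capitals. The stretch of AARS1 is at chr6:13321504-13321533 on the minus strand, starting its match 99 bases upstream of the gene (position -99). Those of CARS1 (chr2:2163329-2163358, minus strand), TARS1 (chr16:19455308-19455337, plus strand) and YARS1 (chr6:89118788-89118817, minus strand) lie in the first transcribed bases, at positions 37, 26 and 33 from the gene start.
AARS1: tttcttggccaTTGCATCAgccaatttagt
CARS1: acttccggggcggtggTTGCATCAgattct
TARS1: gcgctttcctaTTGCATCAgctggcacgag
YARS1: gacgagctcagcTGATGCAAcctaactgga

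Other genes also separated Control 2 from the other Control libraries. ATF4 was at 442.2, 151.0 and 550.0 CPM in Control 1, 2 and 3, against 166.3 to 205.6 CPM in Hyper. CHAC1, a glutathione-degrading target of ATF4, was at 1.94, 0.178 and 9.24 CPM, and the summed level of 19 amino acid supply genes that ATF4 controls was 1136, 609.9 and 1342 CPM. Like AARS1, these were lowest in Control 2 and highest in Control 3. The 4 blood markers HBB, HBM, ALAS2 and AHSP, which summed to 354.5, 36.7 and 342.0 CPM, and the interferon-gamma target CXCL9, at 32.5, 5.23 and 25.1 CPM, were also lowest in Control 2 but highest in Control 1. Marker lists of heart cells separated Control 2 in both directions. The 5 ventricular cardiomyocyte markers summed to 69390, 50050 and 74540 CPM in Control 1, 2 and 3, 5 markers of all cardiomyocytes to 30670, 23330 and 29420 CPM, 3 genes of skeletal muscle type to 26200, 18460 and 24040 CPM and 5 endothelial markers to 964.0, 779.0 and 946.0 CPM, each lowest in Control 2. The 7 fibroblast markers, at 3198, 3510 and 2114 CPM, and the 6 atrial markers, at 147.6, 230.3 and 205.0 CPM, were highest in Control 2. The hearts had not been perfused before sampling. The part of any of these genes in the synthetase levels was not tested. Outside the Control group, the sum of blood markers was highest in MYO 5, at 198.5 CPM. AARS1 there was 93.8 CPM, within the MYO range of 85.6 to 144.0 CPM. The highest ATF4 outside Control was in DOX 1, at 341.9 CPM, and AARS1 there was 90.4 CPM, again within the range of the other DOX libraries. MYO 1, with an ATF4 of 294.7 CPM, held the highest AARS1 outside Control, at 144.0 CPM, together with 126.1 CPM of SARS1 and 101.2 CPM of IARS1. Each of these values is from a single library, and the relation of blood markers or ATF4 to the synthetases was not tested.

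Both drugs were compared with Control to see how the charging enzymes stood after anthracycline treatment. In DOX, 14 members were lower and 4 higher at an adjusted p of at most 0.05 in the quasi-likelihood test of edgeR with Benjamini-Hochberg adjustment. That is 18 of 36 members beside 42.1% of all genes tested. By compartment, 11 of 18 cytosolic enzymes fell and none rose, and both dual enzymes fell. Of 16 mitochondrial enzymes 4 (AARS2, CARS2, EARS2 and SARS2) rose while YARS2 fell. Among all genes tested 21.1% fell and 21% rose, so the share of mitochondrial enzymes that rose was near that of all genes. The median log2 fold change was -0.77 for cytosolic and 0.03 for mitochondrial enzymes, with 0.03 for all genes. In MYO, 14 members fell and 5 rose (19 of 36, beside 42.4% of all genes, 21.7% lower and 20.7% higher). Here too 11 of 18 cytosolic enzymes fell, none rose, and both dual enzymes fell. Of the mitochondrial enzymes AARS2, CARS2, EARS2, PARS2 and SARS2 rose and YARS2 fell, with class medians of -0.65 and 0.13. Both comparisons use the same 3 Control libraries. Cell-type markers moved with the same groups. The 7 fibroblast markers summed to 4835 to 7180 CPM in DOX and 4636 to 6730 CPM in MYO, against 2114 to 3510 CPM in Control and 1583 to 3893 CPM in Hyper, and 6 atrial markers to 1167 to 2463 CPM and 839.4 to 1304 CPM, against 147.6 to 230.3 CPM in Control and 310.7 to 1310 CPM in Hyper. The 4 proliferation markers summed to 20.42 to 46.5 CPM in DOX and 14.25 to 24.54 CPM in MYO, against 9.383 to 9.732 CPM in Control and 7.626 to 15.15 CPM in Hyper. The 3 genes of skeletal muscle type summed to 13520 to 17890 CPM in DOX and 15050 to 18830 CPM in MYO, against 18460 to 26200 CPM in Control and 18620 to 24860 CPM in Hyper. Their part in the synthetase differences was not tested. Without Control 3, the DOX count became 11 members, none of them higher, and the MYO count 11, beside 27.4% and 28.1% of all genes, with AARS1, SARS1, GARS1 and YARS1 no longer past the threshold in either.

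With the names of the count files, the largest falls in DOX were in CARS1, AARS1 and IARS1. With the names of the authors' table, these log2 fold changes were -0.20, 0.77 and 0.00, and only AARS1 passed the threshold. Those of SARS2, EARS2 and AARS2, given below, were then 0.38, 0.21 and 0.08, and none passed it. CARS1 was at 11.42, 12.13, 11.06, 15.28 and 13.11 CPM in DOX 1 to DOX 5, with a log2 fold change of -1.27 (SE 0.25, adjusted p = 7.80e-04). Only DOX 4 exceeded the 15.1 CPM of Control 2. AARS1 was at 90.4, 94.2, 109.0, 100.3 and 86.7 CPM, a log2 fold change of -1.02 (SE 0.26, adjusted p = 0.00508), and all 5 DOX values lay above Control 2 and below Control 1 and Control 3. IARS1 was at 70.8, 62.2, 72.4, 65.5 and 72.3 CPM, a log2 fold change of -1.01 (SE 0.18, adjusted p = 2.62e-04). For IARS1 no DOX library reached the lowest Control value of 93.9 CPM. SARS2, which charges mitochondrial serine tRNA, rose the most in DOX, by 0.65 on the log2 scale (SE 0.19, adjusted p = 0.0107), at 8.61, 8.48, 9.53, 9.35 and 7.48 CPM. EARS2 rose by 0.62 (SE 0.17, adjusted p = 0.00836), at 12.5, 15.4, 17.2, 17.2 and 16.8 CPM, and the mitochondrial alanine enzyme AARS2 by 0.50 (SE 0.17, adjusted p = 0.0273), at 27.1, 27.9, 25.0, 35.8 and 18.6 CPM. SARS2 did not overlap with Control, whereas EARS2 in DOX 1 and AARS2 in DOX 5 were below Control 2.

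In MYO the largest falls with the names of the count files were in TARS1, FARSB and IARS1. With the names of the authors' table, these log2 fold changes were 0.37, -0.04 and -0.10, and none passed the threshold. Those of EARS2, SARS2 and PARS2, given below, were then 0.43, 0.35 and 0.21, and none passed it either. TARS1 was at 52.1, 49.2, 43.4, 43.4 and 45.2 CPM in MYO 1 to MYO 5, a log2 fold change of -0.91 (SE 0.18, adjusted p = 6.82e-04), so that every MYO library was below the 53.3 CPM of Control 2. FARSB, the beta subunit of the phenylalanine enzyme, was at 45.0, 41.8, 39.3, 33.9 and 46.9 CPM against 73.9, 69.4 and 87.0 CPM in Control, and fell by 0.89 on the log2 scale (SE 0.12, adjusted p = 2.70e-05). The alpha subunit gene, FARSA, had a log2 fold change of -0.10 in MYO and -0.06 in DOX and passed the threshold in neither. IARS1 was at 101.2, 72.5, 71.9, 68.1 and 62.1 CPM, a log2 fold change of -0.88 (SE 0.18, adjusted p = 7.89e-04), and MYO 1 alone exceeded Control 2. The largest rises were in EARS2 (0.79, SE 0.17, adjusted p = 0.00167), SARS2 (0.67, SE 0.19, adjusted p = 0.00889) and PARS2, the mitochondrial proline enzyme (0.55, SE 0.20, adjusted p = 0.0315). EARS2 was at 15.1, 23.2, 18.4, 14.9 and 16.9 CPM, and each of these exceeded the highest Control value of 13.3 CPM. SARS2 was at 8.24, 8.04, 8.89, 10.7 and 8.29 CPM, again above every Control library, while PARS2, at 5.70, 7.62, 7.26, 7.62 and 6.77 CPM, overlapped with the 6.24 CPM of Control 2 through MYO 1.

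Over the 10 drug-treated libraries together, 8 members were below every Control library, beside 14.1% of all genes tested. They were EPRS1, FARSB, LARS1, NARS1, TARS1 and TARS3 in the cytosol, the dual enzyme KARS1 and the mitochondrial tyrosine enzyme YARS2. EPRS1 charges both glutamate and proline tRNA, and KARS1 and LARS1, the leucine enzyme, are further parts of the multisynthetase complex. The 3 members above every Control library, CARS2, SARS2 and VARS2, are all mitochondrial, beside 13.5% of all genes tested. Of these, VARS2 (log2 fold change 0.40 in DOX, adjusted p = 0.0683, and 0.42 in MYO, adjusted p = 0.0596) did not pass the edgeR threshold. TARS3, a cytosolic threonine enzyme and paralog of TARS1, did not pass it either, at -0.92 (SE 0.54, adjusted p = 0.178) in DOX and -0.69 (SE 0.54, adjusted p = 0.315) in MYO.

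**Figure D4:**
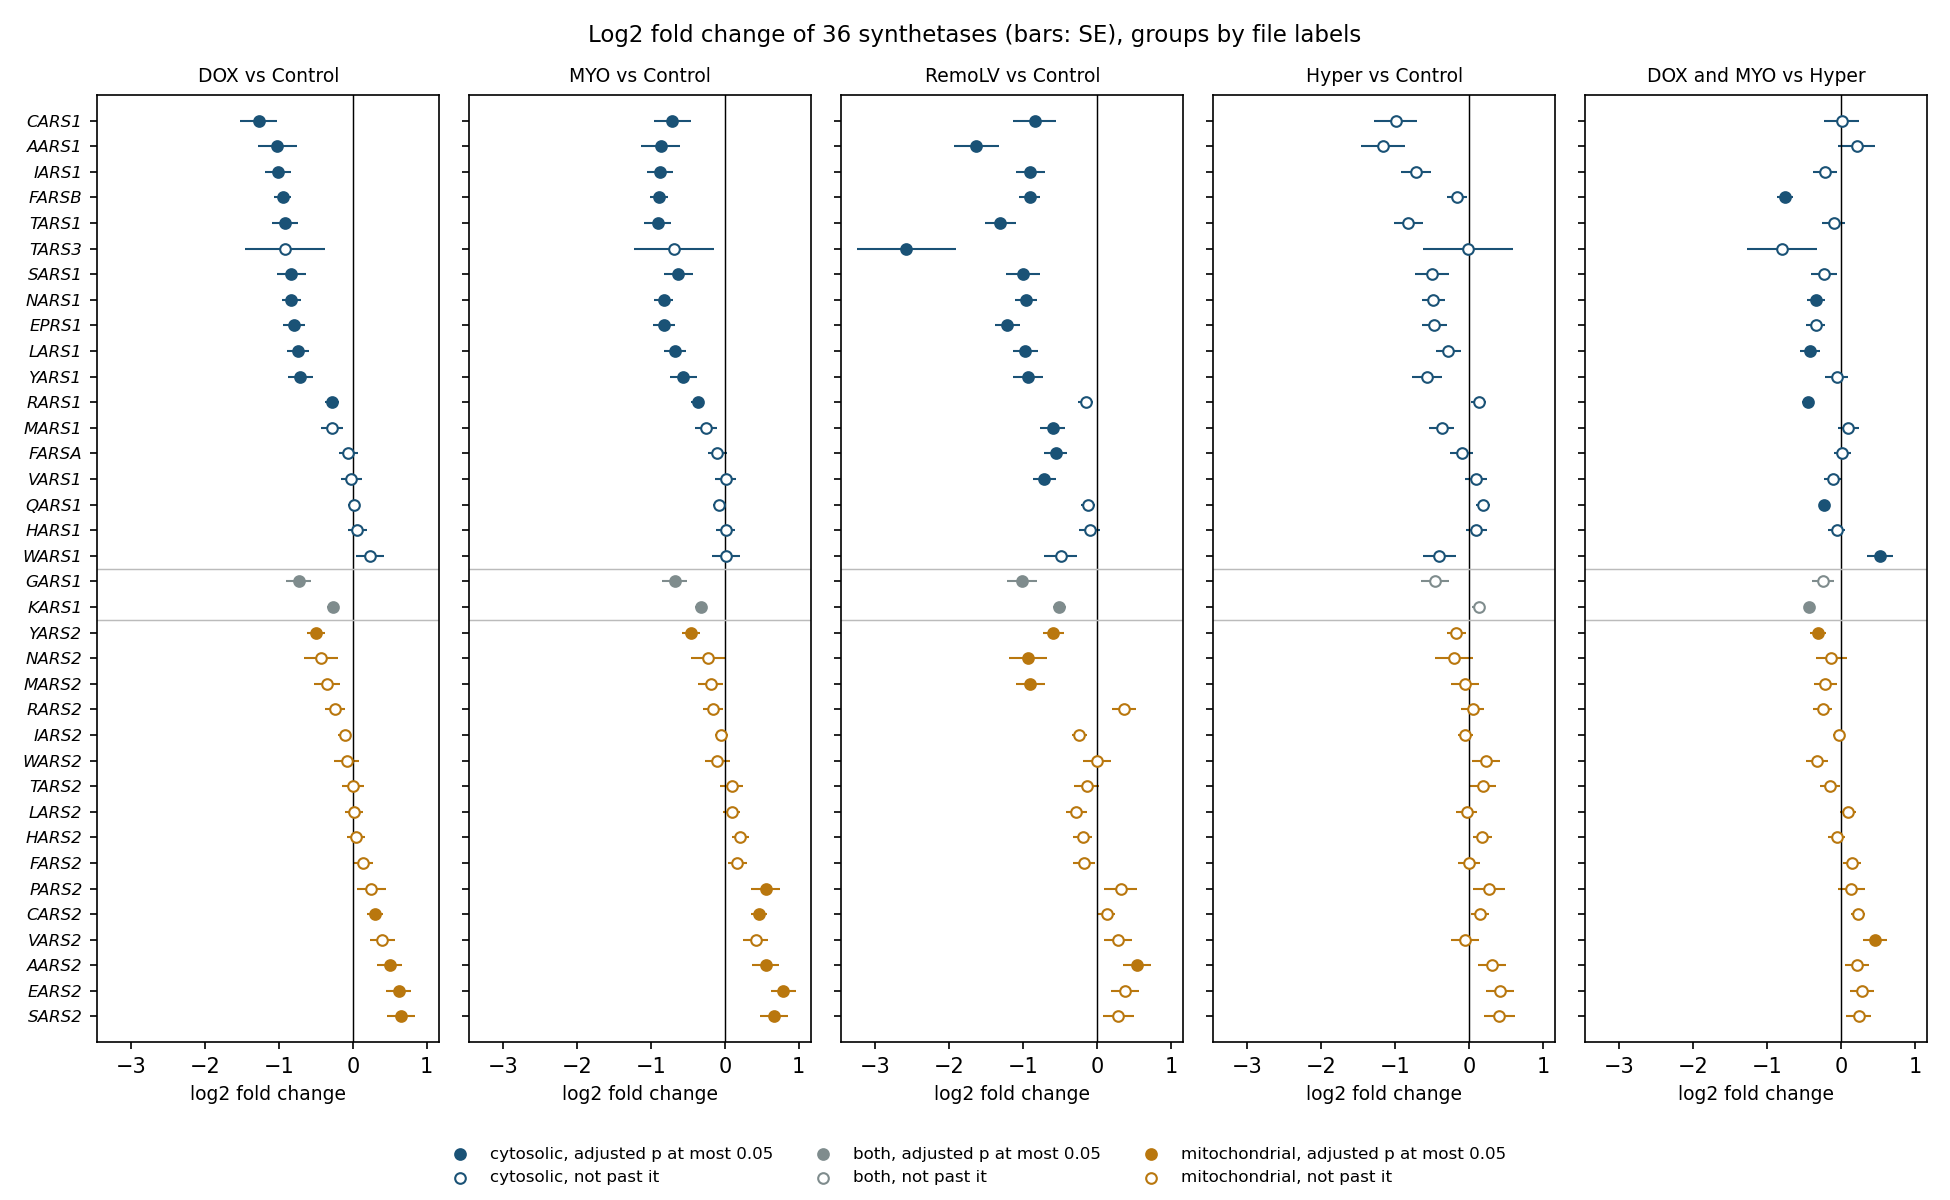
Log2 fold changes with standard errors of the 36 members in 5 comparisons, with cytosolic enzymes in the top block, the 2 dual enzymes in the middle and mitochondrial enzymes at the bottom. Filled points have an adjusted p of at most 0.05 in edgeR. Cytosolic points lie mostly to the left of 0 in DOX, MYO and RemoLV, with medians of -0.77, -0.65 and -0.90, and mitochondrial points lie around 0.

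Free and liposomal doxorubicin, at the same dose per cycle and the same time, were compared with each other directly. No member passed the edgeR threshold (0 of 36, beside 0% of all genes tested), 1 member had an unadjusted p under 0.05, beside 7.08% of all genes, and DESeq2 called no member either. That member was CARS1, with a log2 difference of -0.56 of DOX from MYO and a 95% interval from -1.03 to -0.08 (adjusted p = 0.695). With the names of the authors' table, which exchange DOX 5 and MYO 1, this difference was -0.15 (SE 0.26, adjusted p = 0.912). CARS1 was 11.06 to 15.28 CPM in DOX and 15.23 to 23.92 CPM in MYO, and the groups overlapped only in DOX 4 and MYO 5. For 34 of 36 members the 95% interval lay within 1 log2 unit on either side of 0, and for 29 within 0.5. The widest interval was that of TARS3, from -1.23 to 0.78. For IARS1 the interval was -0.46 to 0.20, and for EARS2 it was -0.47 to 0.14.

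The libraries labelled RemoLV, the label of the remote wall after infarction, were compared with Control. Their chamber markers given above were atrial, so the comparison does not isolate the remote ventricular wall. The 6 atrial markers summed to 9582 to 12900 CPM in RemoLV against 147.6 to 230.3 CPM in Control. The 7 fibroblast markers summed to 10980 to 12600 CPM against 2114 to 3510 CPM. The part of either in the synthetase differences was not tested. In the RemoLV libraries 19 members were lower and 1 higher than in Control (20 of 36 members, beside 47.2% of all genes tested, 24% lower and 23.1% higher). Lower members comprised 14 of 18 cytosolic enzymes, both dual enzymes and the mitochondrial MARS2, NARS2 and YARS2, and AARS2 was the only member that rose. TARS3 showed the largest fall, at 1.13, 4.17 and 13.2 CPM against 28.3, 47.0 and 32.2 CPM in Control, a log2 fold change of -2.58 (SE 0.67, adjusted p = 0.00411). The groups did not overlap, but RemoLV 3 was more than 10 times as high as RemoLV 1. AARS1 was at 68.4, 60.2 and 60.4 CPM, a log2 fold change of -1.63 (SE 0.31, adjusted p = 3.55e-04), and TARS1 at 34.7, 37.8 and 33.2 CPM, a log2 fold change of -1.31 (SE 0.21, adjusted p = 7.02e-05). Both genes were lower in the 3 RemoLV libraries than in any of the other 16. AARS2 was at 28.8, 27.2 and 26.9 CPM, above the Control values of 17.9, 23.3 and 15.6 CPM, with a log2 fold change of 0.54 (SE 0.19, adjusted p = 0.0272). In all, 8 members were lower in the RemoLV libraries than in the other 16 libraries, beside 7.98% of all genes: AARS1, EPRS1, LARS1, TARS1, VARS1, YARS1, KARS1 and MARS2.

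Against Hyper, the other overload model, the RemoLV libraries were lower in 15 members and higher in none, beside 35.6% of all genes tested, 18.6% lower. TARS3 again differed the most, with a log2 fold change of -2.57 (SE 0.67, adjusted p = 0.00585), but its Hyper values were 55.5, 44.0 and 7.64 CPM, so that Hyper 3 fell among the RemoLV libraries. MARS2, the mitochondrial methionine enzyme, was at 5.77, 6.26 and 4.99 CPM against 10.8, 9.71 and 10.3 CPM in Hyper, a log2 fold change of -0.85 (SE 0.20, adjusted p = 0.00259). VARS1, the cytosolic valine enzyme, was at 20.1, 23.2 and 20.5 CPM against 31.2, 40.5 and 40.4 CPM, a log2 fold change of -0.81 (SE 0.16, adjusted p = 5.75e-04). Neither MARS2 nor VARS1 overlapped between the groups. AARS1, in contrast, had a log2 fold change of -0.47 and CARS1 of 0.16 (adjusted p = 0.240 and 0.709), although both fell against Control. The count dropped to 8 without RemoLV 3, to 9 without RemoLV 2 and to 9 without Hyper 1, beside 28.2%, 30.3% and 29.8% of all genes. The chamber markers given above differ between these groups, as do fibroblast markers, whose 7 genes summed to 10980 to 12600 CPM in RemoLV and at most 7180 CPM elsewhere, and the genes of skeletal muscle type (3 of 5 found), which summed to 4526 to 6880 CPM in RemoLV and at least 13520 CPM elsewhere. Their part in the synthetase differences was not tested.

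Pressure overload was compared with Control in the same way. No member passed the edgeR threshold in Hyper (0 of 36, beside 0% of all genes tested), while 12 members had an unadjusted p under 0.05, beside 17.8% of all genes, and DESeq2 called 4 members lower (AARS1, CARS1, IARS1 and TARS1), beside 2.3% of all genes. AARS1 had a log2 fold change of -1.16 (SE 0.30, adjusted p = 0.127) and CARS1 of -0.99 (SE 0.29, adjusted p = 0.138). TARS1 had a log2 fold change of -0.82 (SE 0.20, adjusted p = 0.111). No member had all Hyper libraries below all Control libraries, beside 4.1% of all genes. The result turned on Control 2: without it, 11 members passed, EARS2 higher and 10 lower, beside 18.4% of all genes. Those 10 were the members in which Control 1 and Control 3 stood above every other library. That pattern was defined on the same Control and Hyper values, so the match is no separate result. Without Hyper 1, 4 members passed as lower (IARS1, LARS1, NARS1 and TARS1), beside 5.6% of all genes.

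DOX and MYO together were compared with Hyper, where the conflict of names has no effect on the libraries of each side. The fibroblast sums given above did not overlap between these groups, whereas the atrial, proliferation and skeletal muscle sums did, and the part of any was not tested. In this comparison 9 members differed, 7 lower and 2 higher, beside 32.6% of all genes tested. FARSB was between 33.9 and 46.9 CPM in the 10 drug-treated libraries (39.9 ± 3.42 CPM in DOX and 41.4 ± 5.08 CPM in MYO, SD, n = 5 each) and at 78.3, 68.9 and 58.5 CPM in Hyper, a log2 fold change of -0.76 (SE 0.11, adjusted p = 3.92e-05). RARS1, the arginine enzyme of the multisynthetase complex, was between 29.8 and 36.3 CPM against 43.8, 42.7 and 44.7 CPM, a log2 fold change of -0.45 (SE 0.08, adjusted p = 2.34e-04). KARS1 was between 292.8 and 333.4 CPM against 437.8, 459.3 and 376.5 CPM, a log2 fold change of -0.43 (SE 0.07, adjusted p = 1.83e-04). The groups did not overlap for these 3 genes, nor for EPRS1, NARS1 and QARS1, which makes 6 members with every drug-treated library below every Hyper library, beside 11% of all genes. LARS1, NARS1, QARS1 and YARS2 were the other 4 members that fell, by 0.42, 0.34, 0.23 and 0.31 on the log2 scale.

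The 2 members that rose in that comparison were WARS1 and VARS2. WARS1, the tryptophan enzyme and a known target of interferon-gamma, was at 28.8, 33.7, 36.3, 45.2 and 62.4 CPM in DOX, at 31.9, 40.8, 33.4, 33.1 and 39.9 CPM in MYO and at 23.9, 27.0 and 29.0 CPM in Hyper, with a log2 fold change of 0.53 (SE 0.18, adjusted p = 0.0310). DOX 5 was the highest and DOX 1 the only drug-treated library within the Hyper range. Of 9 interferon-gamma targets tested beside it, 6 rose and none fell, beside 15.8% of all genes higher, and the summed level of the list was 348.8 to 851.9 CPM in DOX, 313.5 to 409.6 CPM in MYO and 257.9 to 273.4 CPM in Hyper, with DOX 5 again the highest. Their part in the WARS1 difference was not tested. VARS2, the mitochondrial valine enzyme, was at 61.9, 43.6, 43.7, 56.8 and 45.1 CPM in DOX, at 42.8, 44.5, 63.1, 44.4 and 59.1 CPM in MYO and at 25.7, 42.7 and 41.5 CPM in Hyper, with a log2 fold change of 0.46 (SE 0.16, adjusted p = 0.0313). Every drug-treated library was above the highest Hyper value of VARS2, by a small margin in MYO 1. Without Hyper 1, which was the lowest for both WARS1 and VARS2, only FARSB, RARS1 and KARS1 remained past the threshold, beside 18.3% of all genes.

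**Figure D5:**
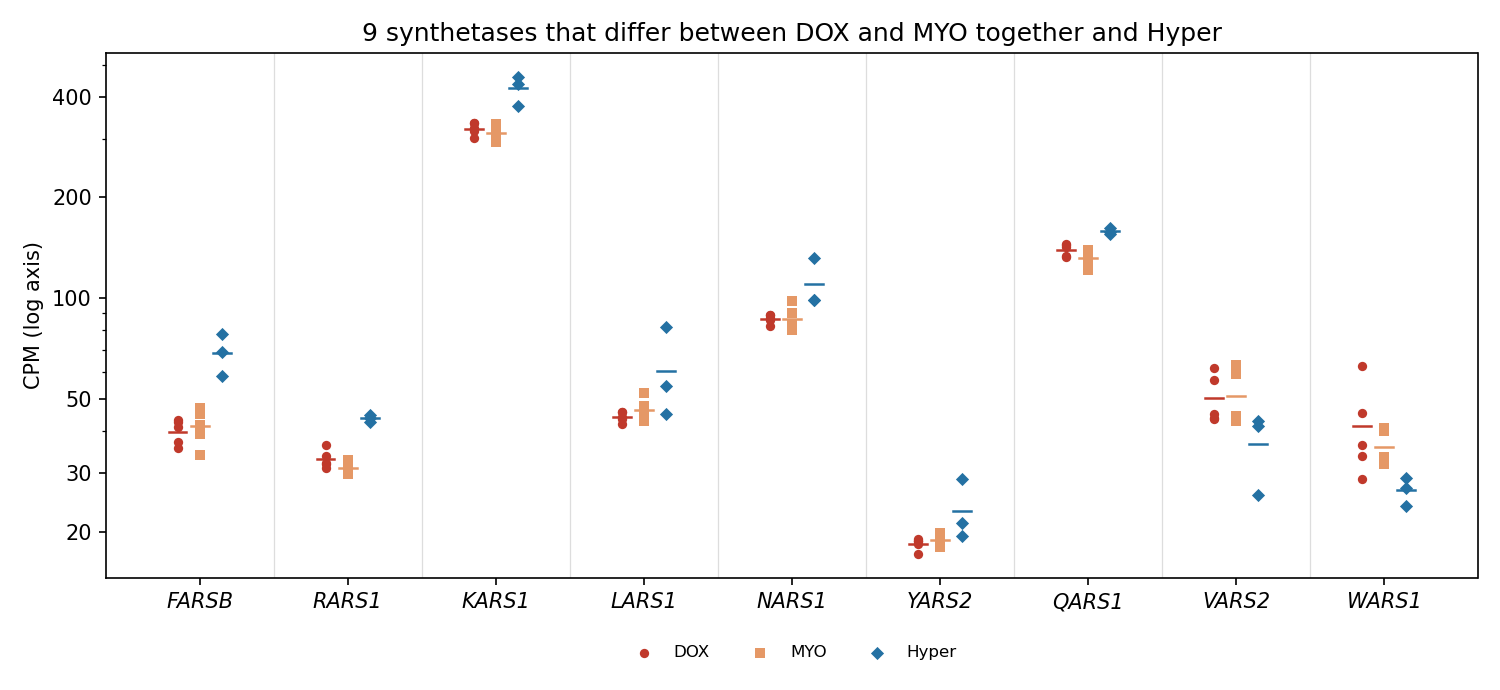
CPM (log axis) in DOX, MYO and Hyper libraries of the 9 members that differ between the drug-treated pigs together and Hyper, in order of their log2 fold change. Points are libraries and short lines are group means. FARSB, at 58.5 to 78.3 CPM in Hyper and at most 46.9 CPM in the drug groups, shows the widest gap.

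The multisynthetase complex was represented by EPRS1, IARS1, KARS1, LARS1, MARS1, QARS1 and RARS1. Of these 7 members 5 fell in DOX, 5 in MYO and 5 in RemoLV against Control, and 4 fell in DOX and MYO together against Hyper, beside 21.1%, 21.7%, 24% and 16.9% of all genes lower, with no rise in any. AIMP1, a scaffold of the complex, was at 92.9, 98.8 and 105.9 CPM in Control, 85.4 to 101.3 CPM in Hyper, 52.8 to 64.9 CPM in DOX, 53.8 to 63.3 CPM in MYO and 52.8 to 59.1 CPM in RemoLV. It thus fell by 0.79 in DOX (SE 0.09, adjusted p = 7.07e-06), by 0.78 in MYO (SE 0.09, adjusted p = 8.89e-06) and by 0.83 in RemoLV (SE 0.11, adjusted p = 9.58e-06) on the log2 scale, and unlike AARS1 it did not separate Control 2 from the other Control libraries. Of the other 2 scaffold genes, EEF1E1 fell in RemoLV by 0.95 (SE 0.26, adjusted p = 0.00553). Among 9 genes of tRNA proofreading, selenocysteine and tRNA end processing, 4 fell and 1 rose in DOX, 3 fell and 1 rose in MYO and 3 fell in RemoLV, beside the same percentages of all genes. TRNT1, which adds the CCA end that synthetases charge, fell by 0.58 in DOX, 0.47 in MYO and 0.78 in RemoLV. ELAC2, which cuts the tails of precursor tRNAs, rose by 0.55 and 0.54 in DOX and MYO.

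Upstream of the synthetases, ATF4 itself had a log2 fold change of -0.69 in DOX (adjusted p = 0.0559), -0.72 in MYO (adjusted p = 0.0453) and -1.03 in RemoLV (adjusted p = 0.0135) against Control, with the division of the Control libraries given above. Of 12 stress kinases and factors tested, 4 fell and 1 rose in DOX, 4 fell in MYO and 4 fell in RemoLV, while 21.1%, 21.7% and 24% of all genes fell and 21%, 20.7% and 23.1% rose. CEBPG, a C/EBP partner of ATF4, fell by 1.35 in DOX and in MYO and by 1.37 in RemoLV, from 48.8, 22.1 and 84.5 CPM in Control. ATF3 was the gene that rose in DOX (log2 fold change 4.15, SE 1.48, adjusted p = 0.0314), at 2212, 83.5, 23.6, 18.5 and 8.99 CPM, so that DOX 1 held most of it. Of 16 amino acid supply genes tested, 6 fell in DOX, 5 fell and 1 rose in MYO and 5 fell and 2 rose in RemoLV, beside the same background. SESN2, which restrains growth signalling when leucine is short, fell by 1.86 in DOX, where it was at 1.36 to 2.73 CPM against 3.81, 0.713 and 18.9 CPM in Control 1, 2 and 3. Every DOX library was thus above Control 2, and Control 3 stood far above all others. SLC38A2, a neutral amino acid carrier, fell by 1.75 in MYO. PHGDH, the first enzyme of serine synthesis, rose by 1.35 in MYO. Against Hyper, none of these 16 genes fell in DOX and MYO together and 2 rose (PHGDH by 1.28 and MTHFD2 by 0.68), and of the 12 stress kinases and factors 1 rose and 1 fell, while 15.8% of all genes rose and 16.9% fell.

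On the mitochondrial side, some partners of the synthetases fell in DOX, MYO and RemoLV. Of 3 tested genes for the amidotransferase that completes mitochondrial glutaminyl-tRNA and for the formyltransferase, 1 fell in DOX (QRSL1 by 0.46), 2 in MYO (QRSL1 by 0.45 and MTFMT by 0.34) and 2 in RemoLV (QRSL1 by 0.88 and GATB by 0.90) against Control. In RemoLV against Hyper, QRSL1 fell by 0.88 and GATB by 0.85. Of 11 mitochondrial translation factors and transcription genes, 7 fell and 1 rose in RemoLV against Control, and in DOX and MYO 5 and 4 fell and 1 rose in each, beside 24%, 21.1% and 21.7% of all genes lower in RemoLV, DOX and MYO. The gene that rose was POLRMT, the mitochondrial RNA polymerase, by 0.59 in DOX, 0.67 in MYO and 0.58 in RemoLV. In contrast TFAM, which packs mitochondrial DNA and helps to start its transcription, fell by 0.61, 0.51 and 0.46 in the same order.

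All comparisons with Control, the one of RemoLV with Hyper and the one of DOX with MYO depend on which deposited names are right, and no naming was chosen as the true one here. With the names of the authors' table, the 3 libraries called RemoLV above become Control. DOX then had 8 members higher and 1 lower (RARS2) than Control, MYO 8 higher and 1 lower (RARS2), RemoLV 19 higher and 1 lower, and Hyper 15 higher and none lower, beside 29.6%, 29.2%, 47.2% and 35.8% of all genes tested, and RemoLV against Hyper had no member past the threshold. DOX against MYO again had no call, with CARS1 at -0.15 (SE 0.26, adjusted p = 0.912) and WARS1 at -0.25 in place of 0.20. AARS1 in DOX, for example, was then higher than in Control by 0.77 on the log2 scale. With the same names, DOX and MYO together against Hyper kept the 9 members above in their directions and added EPRS1 on the lower side.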

How the data were processed

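LV tissue of 19 pigs had been sequenced by poly(A)-selected, directional RNA-seq. The authors used STAR for alignment to Sscrofa11.1 and HTSeq 0.11.1 (reverse-stranded, union mode) for counting, and deposited raw counts of Ensembl genes in 1 file per library. The authors also deposited a table with log2-scale expression values, used here only to match names and symbols, and their own DESeq2 log2 fold changes and adjusted p-values, which were not used. Counts were scaled by TMM and tested with the quasi-likelihood test of edgeR 4.0.16 in R 4.3.3, in 1 model of 5 groups over the 13552 genes kept by filterByExpr, with Benjamini-Hochberg adjustment over all of them and no fold threshold. CPM values use the same scaled library sizes, and group errors are SDs over pigs. The procedure was tested on simulated data. Alternatives were DESeq2 1.42.0, other scalings and filters, a replicate block, table names and each library left out, and fits without the 3 RemoLV libraries or with table names less 1 Control-labelled library, added after the data were seen. Members and lists were chosen with earlier results of these data known. Full statistics were given in each comparison for up to 3 called members each way, ranked by log2 fold change, and for the 3 of widest Control range, and other lists were represented by up to 2 called genes each way. Gene positions, gene starts and sequences are from RefSeq on Sscrofa11.1. HARS1 and HARS2 are paralogs, and whether reads shared between them were lost in counting was not measured. Tables were made with Python 3.11.15 and pandas 2.3.3.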

Additional observations from a re-analysis of the deposited data

Results flagged for a closer look

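Among 72 sets of 5 libraries (36 members in DOX and in MYO), 4 held a library whose gap to its nearest neighbour, divided by the range of the group, exceeded Dixon's critical value of 0.71, and chance gives about 1 in 20 such sets. The histidine enzyme of the mitochondrion, HARS2, was at 27.65 CPM in DOX 1 against 37.57 to 39.42 CPM in the other DOX libraries. HARS2 was also at 42.59 CPM in MYO 4 against 39.97 to 40.48 CPM in the other MYO libraries. IARS1 was at 101.2 CPM in MYO 1 against 62.1 to 72.46 CPM in the other MYO libraries, and MARS1 at 47.39 CPM in DOX 5 against 54.09 to 56.36 CPM in the other DOX libraries. MYO 1 and DOX 5 are the pair of libraries whose names are exchanged in the authors' table, whereas DOX 1 and MYO 4 keep theirs. Any part of the names in these values was not tested.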

How the results depend on the processing

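Outside the settings with table names, the 24 fold changes given in full kept their direction in every alternative run, with 361 values still past the threshold and 27 no longer past it. Those 27 belong to SARS2, EARS2, AARS2 and AARS1 in DOX, SARS2 and PARS2 in MYO, AARS2 in RemoLV, and WARS1 and VARS2 in DOX and MYO against Hyper. With a further minimum of 2 on the size of the log2 fold change there were 0 called members in DOX, MYO and DOX and MYO against Hyper and 1 (TARS3) in RemoLV against Control and against Hyper. DESeq2 called 4 members in Hyper, and upper quartile scaling called 8 in RemoLV against Hyper; the cause was not tested. Leaving out each library gave 11 to 18 called members in DOX, 11 to 21 in MYO, 17 to 25 in RemoLV, 0 to 11 in Hyper, 0 in DOX against MYO, 8 to 13 in RemoLV against Hyper and 3 to 10 in DOX and MYO against Hyper.

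Same-numbered libraries did not deviate together (4 of 32 pairs with r above 0.1, median 0.007), so the numbers were not taken as pairs. With a replicate block, calls became 17 in DOX, 15 in MYO, 21 in RemoLV, 0 in Hyper, 13 in RemoLV against Hyper and 3 in DOX and MYO against Hyper.

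With table names, called members were 9 in DOX, 9 in MYO, 15 in Hyper and 0 in RemoLV against Hyper. The last 2 counts mirror those of RemoLV against Hyper and of Hyper against Control with the count file names, since Control and RemoLV are exchanged. Leaving out in addition the library labelled Control 1, 2 or 3 gave 8, 13 and 10 in DOX, 9, 15 and 12 in MYO, 15, 17 and 16 in Hyper and 0, 11 and 0 in RemoLV against Hyper. Signs changed as follows, first with table names and then also without Control 1, 2 and 3, and those from 0.00 to 0.05 (IARS1, TARS3 and MARS2) are near 0 and show no direction. AARS1 in DOX was 0.77, then 0.78, 0.78 and 0.78, IARS1 in DOX 0.00, then 0.01, 0.01 and 0.01, and TARS1 in MYO 0.37 in all 4. In RemoLV against Control, AARS2 was -0.54, then -0.50, -0.72 and -0.42, TARS3 was 2.58, then 2.73, 2.35 and 2.66, AARS1 was 1.63, then 1.65, 2.01 and 1.11, and TARS1 was 1.31, then 1.39, 1.58 and 0.90. In RemoLV against Hyper, TARS3 was 0.01 and MARS2 0.05, then 0.15 and 0.02 without Control 1 and 0.08 and 0.23 without Control 3. Depth limits chiefly PARS2 and TARS3, which had under 50 counts in some library.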
